A study of Mus musculus with 10 samples.

Results

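Transporters that carry amino acids, hexose sugars and monocarboxylates across the membranes of mouse cells are described here, in macrophages sorted by whether they had engulfed apoptotic cells. The members are the protein-coding genes whose symbols begin with Slc1a, Slc2a, Slc3a, Slc7a, Slc16a, Slc36a, Slc38a or Slc43a followed by a digit, without Slc2a1, Slc16a3, Slc7a2 and Slc7a11. The rule used names only, and found 65 of the 55414 gene identifiers counted. By family there were 7 Slc1a, 11 Slc2a, 2 Slc3a, 14 Slc7a, 13 Slc16a, 4 Slc36a, 11 Slc38a and 3 Slc43a genes. Slc7a6os came in by its name alone: it is the opposite-strand neighbour of Slc7a6, 2.01 kb away, and is not a transporter gene.

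The study asked how macrophages that clear apoptotic cells in skin, a process called efferocytosis, differ from those that do not. Messenger RNA was sequenced in 10 libraries of cells sorted by flow cytometry into Eff+ (efferocytic) and Eff- (not efferocytic). For the wound, 3 Eff+ and 3 Eff- libraries were made from macrophages of skin wounds collected on day 3. The labels give the genotype LysMCreER/mTmG for all 6, without the number of copies of the Cre allele, and a 6-day tamoxifen treatment of mice. In such mice a tamoxifen-inducible Cre recombinase, expressed from the lysozyme M locus (Lyz2) and so in several kinds of myeloid cell, switches a membrane reporter from red to green. For culture, 2 Eff+ and 2 Eff- libraries were made from wild-type bone marrow cells grown with GM-CSF, a growth factor, for 7 days, with apoptotic fibroblasts listed as a 12 h treatment. The Eff- columns of the culture table carry the letters NOAC while their labels list the apoptotic fibroblasts, so it is unclear whether those cells had met apoptotic cells. The labels say neither the sex and age of the animals nor whether replicates were separate animals or cultures. If they were not, p-values reflect technical spread alone.

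Solute carriers move small molecules along or against a gradient without splitting ATP directly. The SLC2 family (GLUT proteins) lets hexoses pass by facilitated diffusion, and the SLC16 family (MCT proteins) includes proton-coupled carriers of lactate and pyruvate. Many SLC7 proteins are light chains that reach the plasma membrane only when bound to a heavy chain of the SLC3 family, and exchange one amino acid for another. SLC1, SLC36, SLC38 and SLC43 proteins carry acidic, neutral or small amino acids, with coupling to sodium or protons in several of them. Macrophages use these carriers to fuel glycolysis, to handle lactate and to take up or release amino acids, among them those freed when an engulfed cell is digested in lysosomes.

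Each wound library held 39735437 to 57308823 counts and each culture library 17622740 to 27261880. The libraries numbered 2 stood apart in the wound for Lyz2, the lysozyme gene at whose locus the Cre is expressed. Its level in CPM, counts per 1000000 counts of the library after scaling, was 3417 in Eff+ 2 and 6567 in Eff- 2, against 3.67 to 8.90 in the other 4, so wound results are also given without those libraries. Whether the mice of those libraries differed in genotype from the others was not tested. The 14 macrophage markers all had counts in every library, and without Lyz2 the other 13 took 0.310 to 0.402% of counts in wound Eff+ and 0.698 to 0.938% in Eff-. A list of 18 neutrophil markers took 2.21 to 2.51% in wound Eff+ and 0.416 to 0.679% in Eff-, and S100a8, among its defining genes, stood at 9045, 10743 and 9186 CPM against 1610, 1095 and 2017 CPM. In culture the libraries numbered 1 had counts for 35649 (Eff+) and 44836 (Eff-) genes and those numbered 2 for 19649 and 18171. Bulk RNA cannot tell apart fewer cells of a type and less RNA per cell, so a level below is that of the sorted population.

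Members took 0.333, 0.342 and 0.368% of all counts in wound Eff+ and 0.244, 0.258 and 0.268% in wound Eff-. These shares did not overlap, and among members Slc2a3, described next, had the widest gap in CPM. Slc2a3 held 78615, 76686 and 77926 of the 166283, 195750 and 185553 member counts in wound Eff+. In wound Eff- it held 16845, 6938 and 16672 of 107160, 113649 and 106465. The higher share in Eff+ thus rested on Slc2a3 and is not a result about the members as a set. In culture the shares were 0.231 and 0.234% in Eff+ and 0.226 and 0.239% in Eff-, which overlapped. Of the 65 members, 38 passed the filter on low counts in the wound and 35 in culture, with 31 passing in both and 23 in neither. No count was found in any wound library for 12 members, which allows up to 0.0105 CPM over the 285377736 wound counts (3 counts, counting error only). Those 12 include Slc2a2 and Slc2a4, the hexose carriers known from liver and from muscle and fat.

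In the wound, the edgeR quasi-likelihood test with Benjamini-Hochberg adjustment called 4 of 38 members at an adjusted p under 0.05, against 11.2% of all 14908 genes tested. Slc2a3, Slc2a6 and Slc2a13, all hexose or polyol carriers of the SLC2 family, rose in Eff+, and Slc7a7, a light chain for cationic and neutral amino acids, fell. Slc2a13 had no count in Eff- and passed the filter through Eff+ alone. The share of members called, 10.5%, lies near that of all genes and is not a result about the members as a set. Of all genes, 7.39% were called higher and 3.79% lower. The groups did not overlap for 14 of the 38 members, 7 higher and 7 lower in Eff+, against 36.8% of all genes. Higher were 18.7% of all genes and lower 18.1%. At an unadjusted p under 0.05 there were 14 members, 36.8%, against 29.9% of all genes, and DESeq2 called 9 members, 5 higher and 4 lower, against 21.1%. The median log2 fold change of the tested members was -0.08, against -0.03 over all genes, with 18 positive and 20 negative values. Scaling by library totals alone, without TMM factors, moved the median of all genes to -0.42 and called 11 of 38 members, 3 higher and 8 lower, against 22.6% of all genes. Without the Eff+ library numbered 2 no member was called, and no gene at all. Without the Eff- library numbered 2 only Slc2a3 was called among the members.

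**Figure D1:**
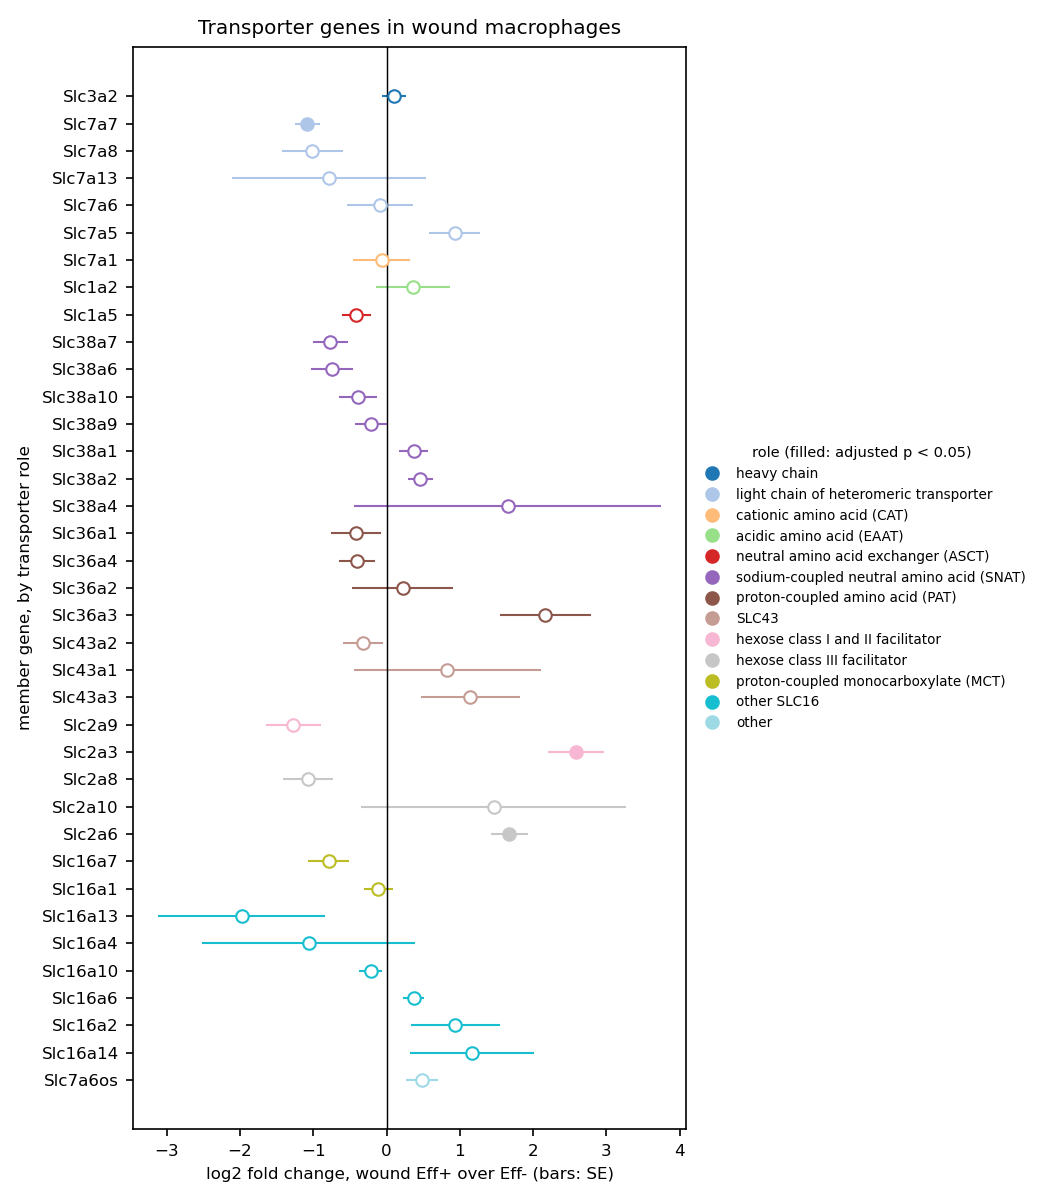
Log2 fold change of Eff+ over Eff- in the wound for 37 tested members, with bars of 1 standard error from the edgeR fit and filled points where the adjusted p was under 0.05. Slc2a3 and Slc2a6 stand to the right and Slc7a7 to the left among filled points. Slc2a13 is not drawn because its Eff- libraries held no count.

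Slc2a3 encodes GLUT3, a high-affinity glucose transporter known from neurons and white blood cells. It lies on chromosome 6 of GRCm39 at 122704768 to 122778599, minus strand (ENSMUSG00000003153). Its level was 1777, 1643 and 1678 CPM in the wound Eff+ libraries and 335, 132 and 383 CPM in the Eff- libraries. The lowest Eff+ library was thus well above the highest Eff- library, and Eff- 2 was the lowest of all. The means were 1699.6 ± 69.6 and 283 ± 133 CPM (SD, n = 3), a 6.00-fold difference, with a log2 fold change of 2.59 (SE 0.38, adjusted p = 0.011 by edgeR). Without both libraries numbered 2 the log2 fold change was 2.27 with an adjusted p of 0.20 by edgeR, and without Eff+ 2 alone it was 2.61 with an adjusted p of 0.065.

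Slc2a6 encodes GLUT6, a class III facilitator found in lysosomal membranes of macrophages. It lies on chromosome 2 at 26911375 to 26918010, minus strand (ENSMUSG00000036067). The Eff+ libraries stood at 330, 591 and 408 CPM and the Eff- libraries at 124, 125 and 166 CPM. Again the groups did not overlap, and here Eff+ 2 was the highest library. The means of 443 ± 134 and 139 ± 24.0 CPM (SD, n = 3) differed 3.20-fold, with a log2 fold change of 1.68 (SE 0.25, adjusted p = 0.012 by edgeR). The adjusted p was 0.062 without Eff+ 2, at a log2 fold change of 1.41, and 0.064 without Eff- 2, at 1.58. Without both libraries numbered 2 it was 0.23, at 1.34.

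Slc2a13 encodes HMIT, a proton-coupled carrier of myo-inositol, a polyol. It was rare, with 16, 44 and 22 counts in the wound Eff+ libraries and none in any Eff- library, or 0.36, 0.94 and 0.47 CPM against 0. Summed over each group, 82 counts against none is at least 29.1-fold higher in Eff+, with 3 counts as the floor over the group. The adjusted p was 0.029 by edgeR, and the call was lost on leaving out any 1 of the 6 libraries. The gene passed the filter on low counts only through its Eff+ libraries, so the call is no separate support for a difference. With a mean of at least 1 CPM required, it was not tested. DESeq2 gave no adjusted p for this gene. Without Eff+ 2 the bound was 20.5-fold. In culture it was as rare, at 0.38 and 0.12 CPM in Eff+ and 1.35 and 0 CPM in Eff-.

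The other SLC2 members did not pass the test. Slc2a8, GLUT8, an intracellular class III carrier, stood at 5.74, 8.79 and 4.18 CPM in wound Eff+ and 14.6, 15.5 and 9.36 CPM in Eff-. Slc2a9, known as a transporter of urate, stood at 3.21, 1.80 and 2.50 CPM in Eff+ and 8.26, 4.51 and 5.35 CPM in Eff-. For both genes every Eff+ library lay below every Eff- library. Their log2 fold changes were -1.08 (SE 0.34) for Slc2a8 and -1.27 (SE 0.38) for Slc2a9, with adjusted p of 0.080 and 0.070 by edgeR, and DESeq2 called both. So within a single family 3 members were called higher, among them Slc2a13, which passed the filter only through Eff+. Another 2 lay on the other side of 0 without passing the edgeR test. Of the 5 class III members 4 were tested in the wound: Slc2a6, Slc2a8, Slc2a10 and Slc2a13. Slc2a10 had no count in Eff+ 2 or Eff- 1, with a log2 fold change of 1.46 (SE 1.81, adjusted p = 0.63 by edgeR). The median of the 4 was 1.57, between Slc2a10 and Slc2a6. It rests in part on Slc2a13, which had no Eff- count, and is not a result about the class.

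**Figure D2:**
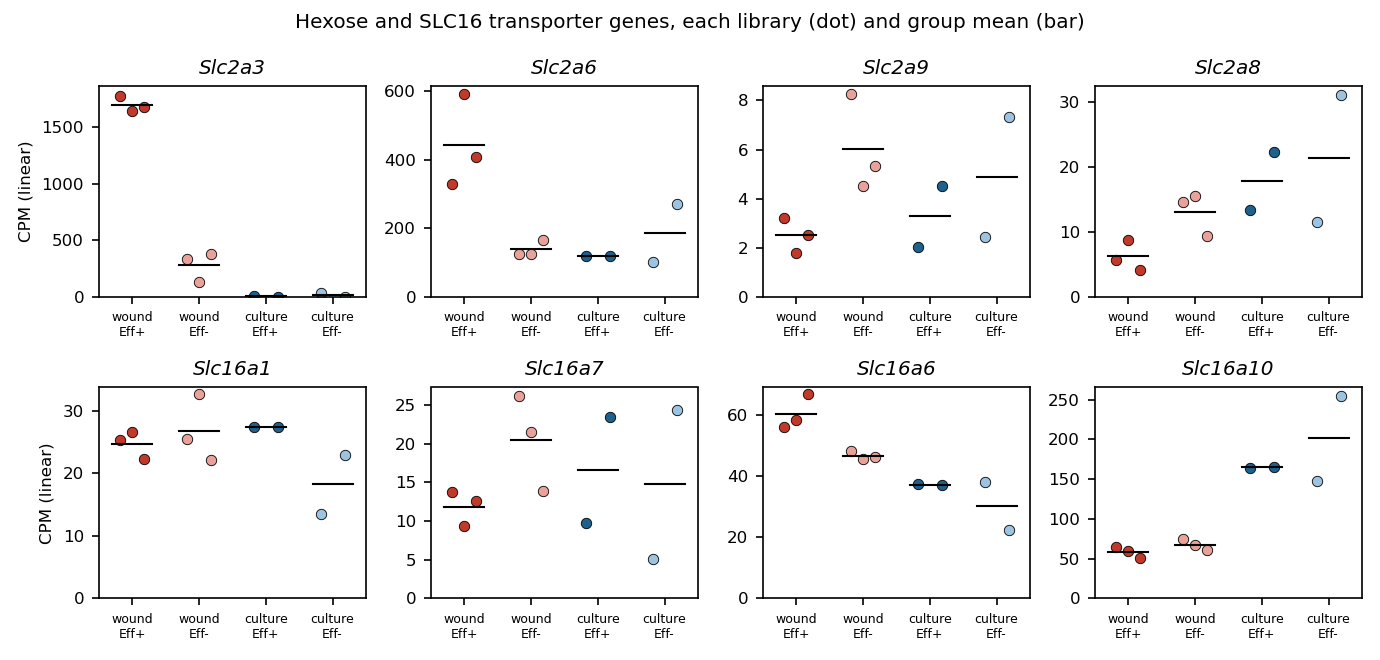
Level in CPM, with a linear axis per gene, of 4 SLC2 and 4 SLC16 members in each of the 10 libraries, grouped as wound Eff+, wound Eff-, culture Eff+ and culture Eff-, with a bar at each group mean. For Slc2a3 and Slc2a6 the wound Eff+ points lie above the wound Eff- points, and for Slc2a3 the culture points lie at 1.04 to 32.9 CPM.

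Most neutrophil markers moved in the same direction as Slc2a3 and Slc2a6. Of the 18 on that list 16 were tested in the wound, all but Elane and Mpo. In Eff+ 12 were called higher and none lower, with a median log2 fold change of 2.58. Of the 16 values 15 were positive and 1 negative, that of Prtn3 at -0.60 (SE 0.42, adjusted p = 0.39 by edgeR). Mpo was at 0 in Eff+ 3, Camp in Eff- 1 and Elane in Eff- 2, and no other gene on the list was at 0 in a wound library. Fibroblast markers took 0.0741 to 0.242% of counts in Eff+ and 0.0266 to 0.146% in Eff-, and keratinocyte markers 0.00393 to 0.00760% and 0.000574 to 0.00195%. The part of these cell types in the differences of the members was not tested. With the markers of other cell types left out of the library sizes and tests, the same 4 members were called. That step dropped the marker genes alone and left the counts of the members unchanged, so it cannot measure the part of those cells.

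Slc3a2 encodes 4F2hc (CD98), the heavy chain that carries most SLC7 light chains to the plasma membrane. It was the highest member per length in all 4 groups, at 247 ± 15.0 CPM per kb of gene length in wound Eff+ and 231 ± 12.1 CPM per kb in wound Eff- (SD, n = 3). In CPM it stood at 820, 925 and 871 in wound Eff+ and 768, 853 and 821 in Eff-. The ranges overlapped and the log2 fold change was 0.10 (SE 0.16, adjusted p = 0.72 by edgeR), with a negative sign under scaling by library totals. The other heavy chain, Slc3a1, known from kidney and gut, had counts in a single wound library, Eff+ 2, at 0.26 CPM.

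Slc7a7 encodes y+LAT1, the light chain that exports arginine and lysine in exchange for neutral amino acids and sodium. It lies on chromosome 14 of GRCm39 at 54606899 to 54655237, minus strand (ENSMUSG00000000958). The wound Eff+ libraries stood at 23.6, 23.8 and 25.1 CPM and the Eff- libraries at 60.9, 48.2 and 44.1 CPM. Eff+ was lower in every library and varied little. The means were 24.2 ± 0.820 and 51.1 ± 8.74 CPM (SD, n = 3), so the level was 2.11-fold higher in Eff-, with a log2 fold change of -1.08 (SE 0.17, adjusted p = 0.013 by edgeR). The adjusted p was 0.077 without Eff+ 2, at -1.07, and 0.060 without Eff- 2, at -1.15. Without both libraries numbered 2 it was 0.24, at -1.11. The span of the gene overlaps Oxa1l on the opposite strand, and the counting used no strand option, so reads of the 2 genes may not be fully told apart. Macrophage markers moved the same way as Slc7a7, with 7 of 14 lower in Eff+ by the same test and none higher, and the part of that in the difference was not tested.

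Promoter windows for the called members Slc7a7 and Slc2a6 are shown because amino acid carriers are textbook targets of the transcription factor ATF4. ATF4 binds, with a C/EBP partner, the letters TGATGNAA (the CARE element). The windows are RefSeq sequence on GRCm38.p6, not the build of the counts, and run from 250 bases before an annotated start. RefSeq windows were found for 48 of the 65 members, 59 in all, and a member can have several. Capitals mark TGATGNAA in the window of Slc7a7, at chr14:54417937-54418194 on the minus strand, whose matches begin 141 bases and 1 base before the start. The window of Slc2a6, at chr2:27027999-27028248 on the minus strand, holds no match on either strand and is printed in lower case.
Slc7a7: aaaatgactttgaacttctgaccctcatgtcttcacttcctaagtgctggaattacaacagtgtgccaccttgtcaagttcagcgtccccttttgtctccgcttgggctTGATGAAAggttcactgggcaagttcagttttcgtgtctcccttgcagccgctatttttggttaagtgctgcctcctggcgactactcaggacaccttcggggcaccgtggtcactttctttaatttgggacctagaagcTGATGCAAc
Slc2a6: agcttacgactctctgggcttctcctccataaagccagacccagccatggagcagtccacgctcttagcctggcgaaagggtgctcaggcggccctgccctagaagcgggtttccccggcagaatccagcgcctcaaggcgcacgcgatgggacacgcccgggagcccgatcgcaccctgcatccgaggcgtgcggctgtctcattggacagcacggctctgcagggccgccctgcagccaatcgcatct

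Searched on both strands, TGATGNAA was in 3.97% of all 32851 RefSeq windows, each 250 bases before to 50 after a start. Among members it was in 3 of 59 windows, those of Slc7a7 and Slc1a4 only, 2 of 48 genes. Slc7a7, which has 5 windows, not all of them with a match, was lower in wound Eff+. Its windows with a match overlap, and the same TGATGCAA site is counted in each of them. Slc1a4 had no count in 3 of the 6 wound libraries. CACGTG, the E-box bound by basic helix-loop-helix factors such as MYC and TFEB, was in 7.15% of all windows. Member windows with CACGTG numbered 9 of 59, from 9 of 48 genes. ACGTG, the core of the hypoxia response element, which CACGTG contains, was in 19.6% of all windows. Member windows with ACGTG numbered 18 of 59, from 16 of 48 genes. Of the 9 genes with CACGTG, Slc16a1, Slc36a1, Slc38a7 and Slc43a1 were tested in the wound. None of these was called, against 11.2% of all genes tested. The rest, Slc16a12, Slc1a6, Slc1a7, Slc38a5 and Slc7a14, did not pass the filter there and could not be called. A match is a description of letters in a window, not of binding.

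The other light chains that pair with Slc3a2 did not pass the test in the wound. Slc7a8, LAT2, a carrier of neutral amino acids of any size, stood at 30.4, 54.5 and 92.4 CPM in Eff+ and 86.2, 97.8 and 173.8 CPM in Eff-. These ranges overlapped, since Eff+ 3 lay above Eff- 1, and the log2 fold change was -1.01 (SE 0.42, adjusted p = 0.15 by edgeR). Slc7a5, LAT1, the leucine carrier that feeds mTORC1, stood at 4.66, 5.57 and 6.96 CPM in Eff+ and 2.42, 4.07 and 2.52 CPM in Eff-. Its groups did not overlap, with a log2 fold change of 0.93 (SE 0.35, adjusted p = 0.12 by edgeR), and DESeq2 called it. Slc7a6, y+LAT2, ranged from 4.88 to 14.4 CPM in Eff+ and 7.37 to 16.3 CPM in Eff-, with a log2 fold change of -0.09 (SE 0.45). Slc7a1, CAT1, a carrier of arginine and lysine that needs no heavy chain, ranged from 3.37 to 9.71 CPM in Eff+ and 6.00 to 6.93 CPM in Eff-.

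**Figure D3:**
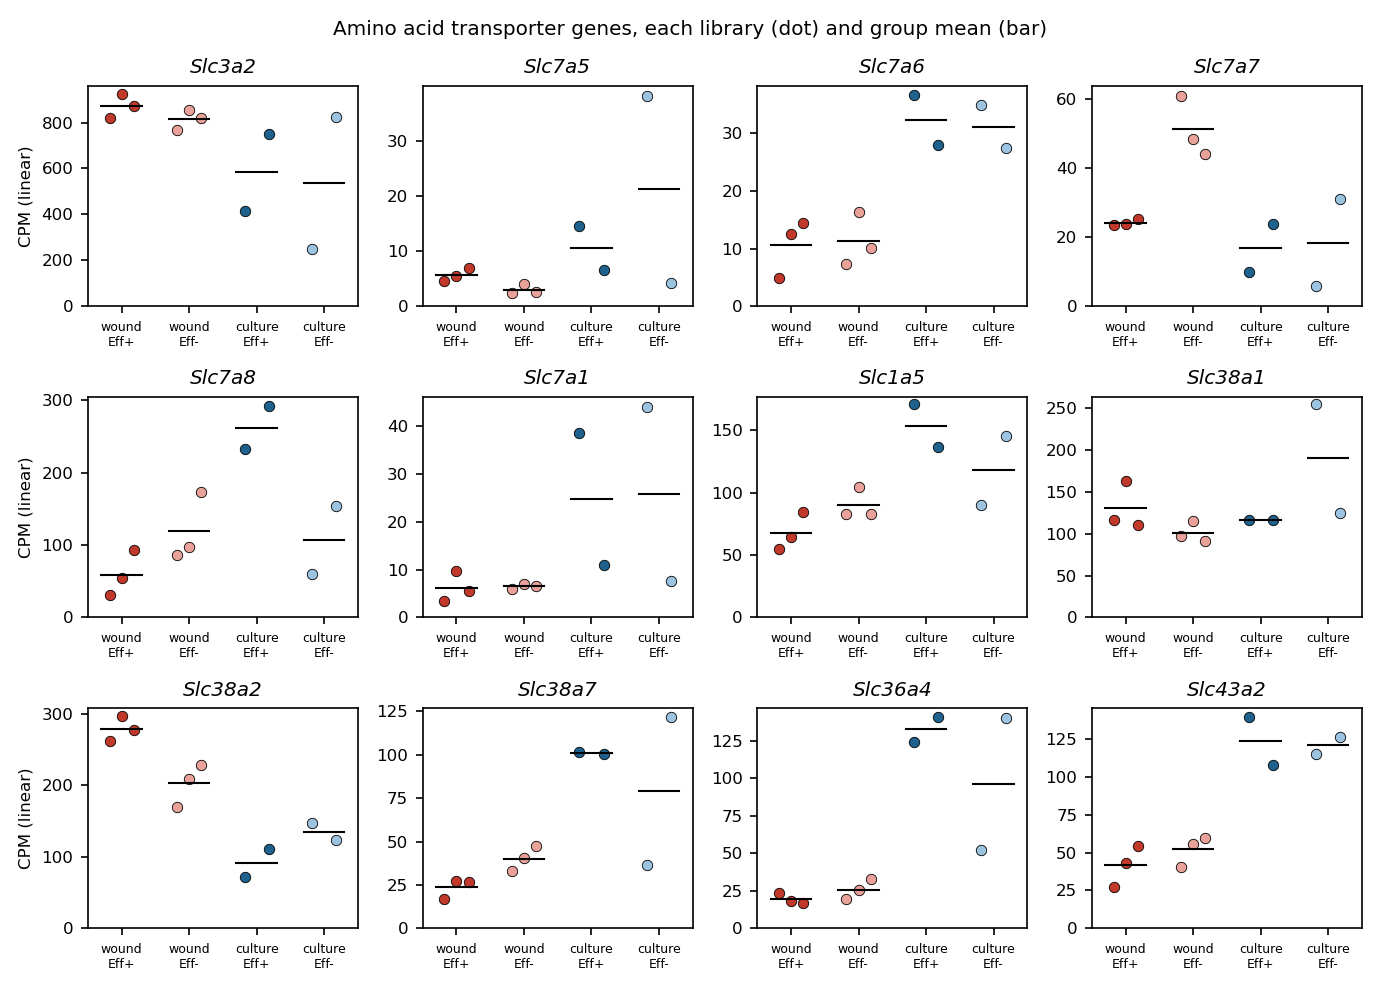
Level in CPM, with a linear axis per gene, of 12 amino acid transporter members in each of the 10 libraries, grouped as wound Eff+, wound Eff-, culture Eff+ and culture Eff-, with a bar at each group mean. The wound Eff+ points of Slc7a7 lie at 23.6 to 25.1 CPM, below the Eff- points at 44.1 to 60.9 CPM.

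None of the 7 tested SLC38 members, sodium-coupled carriers of glutamine, alanine and related amino acids and their relatives, passed the test in the wound. Slc38a2, SNAT2, which is induced when amino acids run short, stood at 263, 297 and 278 CPM in Eff+ and 170.4, 209.6 and 228 CPM in Eff-. Every Eff+ library was above every Eff- library, but the log2 fold change was 0.46 (SE 0.17, adjusted p = 0.12 by edgeR). DESeq2 called it. Slc38a1, SNAT1, stood at 117, 164 and 111 CPM in Eff+ and 96.8, 115 and 91.6 CPM in Eff-, which overlapped, and its log2 fold change of 0.37 (SE 0.20) turned negative with library totals. Slc38a7, SNAT7, which exports glutamine from lysosomes, stood at 16.9, 27.3 and 26.6 CPM in Eff+ and 32.9, 40.3 and 47.4 CPM in Eff-. Those groups did not overlap either, with a log2 fold change of -0.77 (SE 0.24, adjusted p = 0.076 by edgeR), and DESeq2 called it. Slc38a9, the lysosomal arginine sensor that acts on mTORC1, stood at 9.21 to 13.5 CPM in Eff+ and 13.1 to 14.1 CPM in Eff-, with a log2 fold change of -0.21 (SE 0.22).

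Slc1a5, ASCT2, a sodium-dependent exchanger of glutamine, stood at 55.0, 64.6 and 84.2 CPM in wound Eff+ and 83.1, 104.8 and 83.2 CPM in Eff-. Only Eff+ 3 reached the Eff- range, and the log2 fold change was -0.41 (SE 0.20, adjusted p = 0.22 by edgeR). Its relatives Slc1a3, a glutamate carrier, and Slc1a4, ASCT1, were near the floor in the wound, at 0 to 2.00 and 0 to 1.42 CPM, and neither was tested there. Slc36a1, PAT1, a proton-coupled exporter of small amino acids from lysosomes, ranged from 3.34 to 6.33 CPM in Eff+ and 4.75 to 7.50 CPM in Eff-. Slc36a3 lies in a row with Slc36a2 and Slc36a1 on chromosome 11, and its function is little described. It stood at 3.53, 4.31 and 2.37 CPM in wound Eff+ and 0.26, 1.16 and 0.85 CPM in Eff-. These groups did not overlap, and the log2 fold change was 2.17 (SE 0.62, adjusted p = 0.061 by edgeR). DESeq2, limma-voom and the newer settings of the edgeR test each called it. It overlaps the antisense gene Slc36a3os, whose reads cannot be told apart without strand. Slc43a2, LAT4, overlapped between groups, with a log2 fold change of -0.32 (SE 0.27). Slc43a3, a purine nucleobase carrier, stood at 10.3, 48.6 and 37.99 CPM in Eff+ and 4.25, 22.2 and 17.5 CPM in Eff-. Its groups overlapped, with the library numbered 1 the lowest of each group, and its log2 fold change was 1.14 (SE 0.68, adjusted p = 0.30 by edgeR).

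Of the SLC16 members none passed the test in the wound. Slc16a1, MCT1, which moves lactate and pyruvate with a proton, stood at 25.4, 26.6 and 22.4 CPM in Eff+ and 25.5, 32.8 and 22.2 CPM in Eff-. The ranges overlapped, and the log2 fold change was -0.11 (SE 0.20, adjusted p = 0.74 by edgeR). Slc16a7, MCT2, a high-affinity relative of MCT1, stood at 13.7, 9.32 and 12.6 CPM in Eff+ and 26.2, 21.4 and 13.9 CPM in Eff-. Its Eff+ values all lay below its Eff- values, Eff- 3 by little, with a log2 fold change of -0.79 (SE 0.28, adjusted p = 0.11 by edgeR). Slc16a6, MCT7, a carrier of ketone bodies, stood at 56.2, 58.6 and 66.9 CPM in Eff+ and 48.4, 45.7 and 46.3 CPM in Eff-. Its groups did not overlap and its log2 fold change was 0.37 (SE 0.14, adjusted p = 0.13 by edgeR), negative with library totals. Its span overlaps Amz2 and Arsg on the opposite strand. Slc16a10, TAT1, a carrier of aromatic amino acids, stood at 50.2 to 64.0 CPM in Eff+ and 60.8 to 74.1 CPM in Eff-, with a log2 fold change of -0.22 (SE 0.16).

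Per kb of gene length, the order of the highest members differed between the groups. In wound Eff+ it was Slc3a2 at 247 ± 15.0, Slc2a3 at 235 ± 9.60 and Slc2a6 at 138 ± 41.8 CPM per kb (SD, n = 3), and the first pair lay within their spread. In wound Eff- it was Slc3a2 at 231 ± 12.1, Slc2a6 at 43.2 ± 7.47 and Slc2a3 at 39.07 ± 18.4 CPM per kb (SD, n = 3), and the last pair lay within their spread. In culture Slc3a2 again came first, at 165 ± 66.7 CPM per kb in Eff+ and 152 ± 116 in Eff- (SD, n = 2). The next places in culture Eff+ were Slc7a8 at 52.3 ± 8.33 and Slc2a6 at 37.1 ± 0.20 CPM per kb (SD, n = 2). In culture Eff- they were Slc2a6 at 58.0 ± 36.9 and Slc1a5 at 28.2 ± 9.35 CPM per kb (SD, n = 2). Here too neighbours lay within their spread. Slc1a5 was at 36.8 ± 5.82 CPM per kb in culture Eff+, beside Slc2a6. Slc16a10 was at 27.4 ± 10.3 CPM per kb in culture Eff-, beside Slc1a5 (SD, n = 2).

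Among the SLC2 members, without Slc2a1, Slc2a3 made up 69.9, 54.8 and 64.1% of the summed CPM per kb in wound Eff+ and 50.7, 28.8 and 48.6% in wound Eff-. That sum was 351, 414 and 361 CPM per kb in Eff+ and 91.1, 63.2 and 108.6 in Eff-. In culture Slc2a3 made up 1.504, 0.453, 10.9 and 0.150% in Eff+ 1, Eff+ 2, Eff- 1 and Eff- 2, and Slc2a6 made up 76.6 to 88.1%. Thus Slc2a6 was the chief transcript of these SLC2 members in every culture library, with Slc2a1 not compared. The heavy chain stood in excess of its light chains: Slc3a2 was 15.0, 11.8 and 7.95 times the sum of Slc7a5, Slc7a6, Slc7a7 and Slc7a8 per kb in wound Eff+ and 5.75, 6.23 and 4.57 times in Eff-. The same ratio was 1.92 and 2.90 in culture Eff+ and 2.22 and 4.95 in culture Eff-. Slc7a11, another partner of Slc3a2, is not counted in that sum. Slc7a7 and Slc7a8 together made up most of the light-chain sum in the wound, with Slc7a7 at 24.4 to 45.8% in Eff+ and 26.1 to 48.5% in Eff-. In culture Slc7a8 was the largest, at 75.7 and 79.4% in Eff+ and 37.9 and 65.1% in Eff-. These shares are descriptions with no test, and wound and culture levels come from separate tables.

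**Figure D4:**
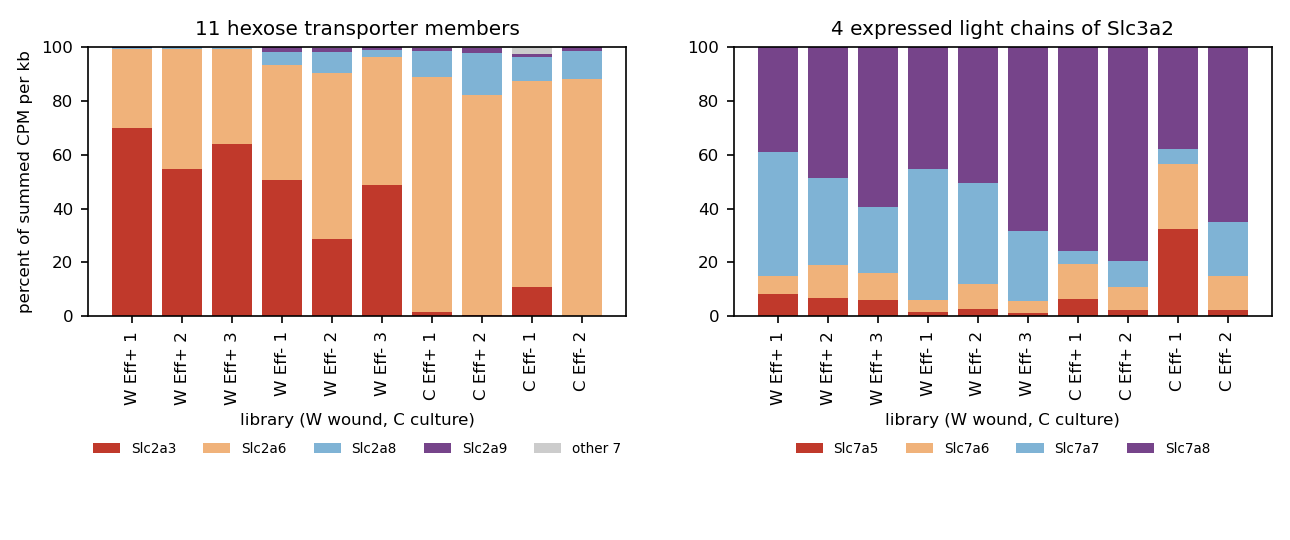
Stacked percent of the summed CPM per kb of gene length for the SLC2 members and for the light chains Slc7a5, Slc7a6, Slc7a7 and Slc7a8, 1 bar for each of the 10 libraries. Slc2a3 fills 54.8 to 69.9% of the SLC2 bars in wound Eff+ and at most 10.9% in culture.

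Other genes of the same pathways were counted from lists chosen with earlier results known. Among 14 tested partners and regulators of the transporters, Txnip and Arrdc4 rose in wound Eff+ and Adam10 fell, with a list median of 0.14 against -0.03 for all genes. Txnip and Arrdc4 are arrestins that draw glucose transporters from the cell surface. Txnip stood at 259, 248 and 290.1 CPM in Eff+ and 87.9, 44.0 and 103 CPM in Eff-, a log2 fold change of 1.76 (SE 0.30, adjusted p = 0.015 by edgeR). Arrdc4 stood at 217, 209 and 180.1 CPM against 114, 89.0 and 107 CPM, a log2 fold change of 0.97 (SE 0.17, adjusted p = 0.015). Neither gene overlapped between groups, and Adam10, a surface protease, had a log2 fold change of -0.63 (SE 0.16).

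Of 31 tested genes of amino acid sensing upstream of mTORC1, 2 rose in wound Eff+ and none fell, with a median of -0.09. They were Sesn2, the leucine sensor and stress gene, with a log2 fold change of 1.77 (SE 0.24, adjusted p = 0.0097 by edgeR), and Rragd, a Rag GTPase, at 1.88 (SE 0.38, adjusted p = 0.023). Sesn2 stood at 65.2, 93.3 and 84.0 CPM in Eff+ and 24.9, 17.1 and 29.004 CPM in Eff-. Of 26 tested amino acid enzymes 2 rose and 3 fell, with a median of -0.36. Asns, asparagine synthetase, stood at 37.9, 51.9 and 31.6 CPM in Eff+ and 6.46, 13.0 and 15.2 CPM in Eff-, a log2 fold change of 1.81 (SE 0.34). Got1, a cytosolic aspartate aminotransferase, and Bcat2, which transaminates branched-chain amino acids, fell by 0.97 (SE 0.18) and 0.72 (SE 0.18) on the log2 scale. Of the 20 cytosolic aminoacyl-tRNA synthetases, which load amino acids onto tRNA, 18 had a negative log2 fold change in the wound, against 7645 of all 14908 genes. Their median was -0.52, and 2 of them fell, Dars by 0.65 and Hars by 0.63. In culture 18 of the 20 had a positive value, against 6873 of all 14867 genes, with a median of 0.22. Of 18 tested hexose and lactate enzymes 2 rose, with a median of 0.22. Pgm2, a phosphoglucomutase, had a log2 fold change of 0.89 (SE 0.17), and the lactate dehydrogenase of testis, Ldhc, stood at 0.30 to 0.34 CPM in Eff+ and was at 0 in Eff-. Ldhc thus passed the filter only through Eff+, so its call is no separate support for a difference. The median of all genes in the wound was -0.03. Beside all of these lists, including the partners and regulators, 7.39% of all genes tested in the wound were called higher and 3.79% lower. In culture no gene of any of these lists was called, and no gene at all.

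In culture, the edgeR quasi-likelihood test called none of the 35 members tested, against 0% of all 14867 genes. At an unadjusted p under 0.05 there were no members and 115 genes (0.774%), and DESeq2 called 2 genes (0.0135%) and no member. The groups did not overlap for 4 of the 35 members, against 20.7% of all genes: Slc7a8 and Slc16a1 were higher in both Eff+ libraries, and Slc38a1 and Slc38a2 were lower. Higher without overlap were 11.3% of all genes and lower 9.42%. Between libraries of the same number, 7 members were higher in Eff+ in both numbers (23.4% of all genes) and 4 lower in both (23.8%). None of these 11 members differed by over 1 on the log2 scale in both, with 0.5 CPM added, against 1.72% of all genes. Every adjusted p was 1.0. The median log2 fold change of the members was 0.05, against -0.05 over all genes.

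Slc7a8 had the smallest p of any member in culture, at 232 and 291 CPM in Eff+ and 60.0 and 154 CPM in Eff-. Eff- 1 was the lowest of these, and the log2 fold change was 1.29 (SE 0.61), on the other side of 0 from the wound value. Slc16a1 stood at 27.5 and 27.4 CPM in Eff+ and 13.6 and 22.9 CPM in Eff-, a log2 fold change of 0.59 (SE 0.44). Slc38a1 stood at 116.4 and 116.3 CPM against 255 and 125 CPM, and Slc38a2 at 72.5 and 111 CPM against 147 and 124 CPM. For both SLC38 members, too, the Eff- 1 library gave the widest gap.

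Eff- 1 was also the highest culture library for Slc2a3, Slc7a5, Slc16a14 and Slc38a9. Slc2a3 stood at 4.62 and 1.495 CPM in Eff+ and 32.9 and 1.04 CPM in Eff-, and its log2 fold change of -2.47 (SE 1.57) became 1.59 without Eff- 1. Slc16a14, a member of the family with no settled substrate, stood at 1.27 and 0.21 CPM against 10.3 and 0.62 CPM, and its log2 fold change of -2.88 (SE 1.62) became 0.28 without that library. Slc38a9 stood at 16.4 and 22.8 CPM in Eff+ and 40.2 and 22.5 CPM in Eff-, and Slc7a5 at 14.6 and 6.56 CPM against 38.2 and 4.31 CPM. In that library dendritic cell markers took 0.0681% of counts, against 0.00242 to 0.0186% in the other 3 culture libraries. Its 13 macrophage markers other than Lyz2 took 0.266%, against 0.509 to 0.840%. The part of either in these values was not tested.

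Some members of high level in culture were low in the wound and the reverse. Slc36a2, PAT2, ranged from 17.8 to 90.6 CPM in culture and from 0.77 to 4.22 CPM in the wound. Slc7a4, a relative of the cationic carriers with no settled transport activity, ranged from 3.41 to 20.9 CPM in culture and from 0 to 0.69 CPM in the wound. Slc36a4, PAT4, stood at 52.2 to 141 CPM in culture and 16.8 to 32.6 CPM in the wound. Slc2a3 went the other way, with every wound library at 132 CPM or more and every culture library at 32.9 CPM or less. Tissue, genotype, sequencing depth and table differ between these sets, so no test was made of the levels.

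Whether the Eff+ difference itself differed between wound and culture was tested over 50 members that passed the filter across all 10 libraries, of 20270 genes. The edgeR interaction test called none of the 50, against 0% of all genes, with 8 members (16%) and 11% of all genes at an unadjusted p under 0.05. DESeq2 called 4 members, Slc2a3, Slc2a6, Slc36a3 and Slc38a2, against 3.93% of all genes. All had a positive sign, as wound minus culture. This did not mean a wound change larger in size. The edgeR log2 fold changes in wound and culture were 2.59 and -2.47 for Slc2a3, 1.68 and -0.64 for Slc2a6, and 0.46 and -0.56 for Slc38a2. Slc36a3 was not tested in culture alone. The largest of them was Slc2a3, at a log2 difference of 5.06 (SE 1.44, adjusted p = 0.27 by edgeR). Slc36a3 was at 3.75 (SE 1.24, adjusted p = 0.32) and Slc2a6 at 2.34 (SE 0.60, adjusted p = 0.23). Slc7a8 had the opposite sign, at -2.29 (SE 0.74, adjusted p = 0.31). Slc38a2 was at 1.04 (SE 0.42, adjusted p = 0.41), and Slc2a13, with a group at 0, was also among the 6 members of smallest p. Without culture Eff- 2, that group held only Eff- 1, assumed to vary like the others, and the log2 difference of Slc2a3 was 5.97. Without Eff- 1, which leaves only Eff- 2, it was 1.01, so its size depended on Eff- 1. In the same order Slc2a6 was at 1.43 and 2.85, and Slc7a8 at -3.18 and -1.79. Of the 31 members tested in both models, 19 had opposite signs in the wound and in culture. The share over all genes was not counted, so this is not a result about the members as a set. No member was called in culture, and the culture signs of Slc2a3 and Slc16a14 reversed without Eff- 1.

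**Figure D5:**
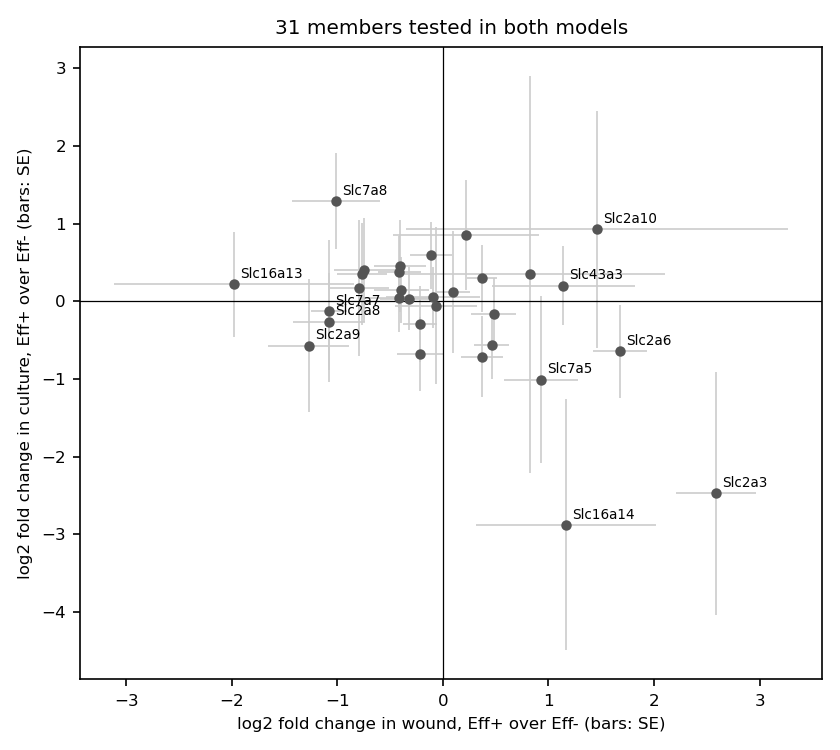
Log2 fold change of Eff+ over Eff- in culture (vertical) against that in the wound (horizontal) for the 31 members tested in both, with bars of 1 standard error. Slc2a3 lies far to the right and below 0, at 2.59 in the wound and -2.47 in culture, and Slc7a8 lies to the left and above 0, at -1.01 and 1.29.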

How the data were processed

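RNA of 6 wound and 4 culture libraries was sequenced by the authors, who deposited raw counts per gene. Wound reads were counted with featureCounts 1.6.0 at default settings on the Ensembl 106 annotation of GRCm39, per the file headers, with no strand option. Trimmomatic 0.39 is named in the submitters' processing notes. Neither the aligner nor the counting command for culture is given in the sources used here. In the culture table, 4 columns that matched no sample and were not used. Symbols came from GENCODE vM21, which named 52133 of 55414 identifiers (99.92% of counts).

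Wound and culture were fitted separately in edgeR 4.0.16 under R 4.3.3 (TMM scaling, filterByExpr, quasi-likelihood test, Benjamini-Hochberg over all genes tested, threshold 0.05), and the interaction over all 10 libraries. SE is the log2 fold change over the square root of F. CPM use TMM-scaled library sizes of each model. Alternatives used other scalings and filters, DESeq2 1.42.0, limma-voom 3.58.1, a replicate block, left-out libraries and left-out markers. The fitting script was tested on simulated data.

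Members and lists were chosen with earlier results of these data known. Genes named are called members, in culture and the interaction the 6 of smallest p, a fixed set of 22 members, the 3 highest per kb in each group, and up to 3 called genes per list. Other members were named after their values were seen.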

Additional observations from a re-analysis of the deposited data

Results flagged for a closer look

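Slc38a2, the sodium-coupled neutral amino acid transporter SNAT2, drew attention because its groups did not overlap in either model and lay in opposite orders. All 3 wound Eff+ libraries were above all 3 Eff- libraries, and both culture Eff+ libraries were below both Eff- libraries. The difference between the 2 log2 fold changes was 1.04 (SE 0.42), with an adjusted p of 0.41 by the edgeR interaction test, which does not pass, and DESeq2 gave 1.18 and called it.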

How the results depend on the processing

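Wound members called numbered 4, and 11 with library totals only, 9 with DESeq2 (3150 of all genes against 1666) and 0 with both libraries numbered 2 left out, where fewer samples were fitted. Leaving out single libraries gave 0 to 3. RLE and upper quartile scaling, no filter, a mean of at least 1 CPM and left-out markers gave 4, and limma-voom and the newer quasi-likelihood settings (chosen after seeing the data) gave 5. With a mean of at least 1 CPM, Slc2a13 was not tested and Slc36a3 was called in its place. Library totals called 3368 genes (22.6%). Slc2a3, Slc2a6 and Slc7a7 kept their wound direction under every alternative run. Culture gave 0 members under every alternative run. The interaction gave 0, but 4 with DESeq2 (3.93% of all genes), 3 with no filter (1.09%) and 0 to 11 on leaving out single libraries (8.5% of all genes where 11); the cause was not tested. The fit that gave 11 had culture Eff- 1 as the only library of its group. Without culture Eff- 1 the culture values of Slc2a3 and Slc16a14 reversed, with ranges over single left-out libraries of -3.46 to 1.59 and -4.64 to 0.28.

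No label says that a replicate number pairs samples. In the wound same-numbered samples had correlations of deviations of 0.41, 0.017 and 0.234, and samples of unlike number -0.348 to 0.152. In culture the value was 0.739, a single value, since with 2 libraries a group both pairs must give the same. The lowest of the same-numbered wound values is that of Eff+ 2 and Eff- 2, although both had the high Lyz2. Whether the numbers pair samples is thus unclear. With the replicate block, 10 wound members were called (2985 of all genes, 20%), 0 in culture (0.323%) and 2 in the interaction, Slc2a3 and Slc7a8 (2.18%). In the wound, Slc36a3 and Slc43a3 joined Slc2a3, Slc2a6 and Slc2a13 as higher, and Slc2a8, Slc2a9, Slc38a7 and Slc7a8 joined Slc7a7 as lower. Slc43a3, which overlapped between groups, had log2 ratios of 1.19, 1.12 and 1.09 within the numbers 1, 2 and 3, and Slc7a8 had -1.49, -0.84 and -0.91 (0.5 CPM added). Low counts limit Slc2a13, Slc36a3 and the 23 members tested in neither model, and 2 libraries a group limit culture.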
